A study of Mus musculus with 20 samples.

Results

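The synaptic vesicle release machinery was followed here as 71 genes of the 20970 genes that had a symbol and values on the array. They were chosen by name: the synaptotagmins, syntaxins, vesicle-associated membrane proteins (VAMPs), SNAP proteins, syntaxin-binding proteins, complexins, Unc13 (Munc13) proteins, RIMs, Rab3 proteins, synapsins and SV2 proteins. The mouse reference holds 73 such names, and no probe was matched to Syt5 or Vamp9. A gene was tested when the mean level of at least 1 group reached 6 on the log2 scale, and 67 of the 71 members were among the 15102 genes tested. Stx11, Stx19, Syt14 and Syt8 stayed under that level in every group and were not tested. The choice by name also takes in SNARE proteins and synaptotagmins that serve endosomes, the Golgi apparatus or the plasma membrane of other cells, and they are described separately from the neuronal release machinery.

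At a nerve terminal, a calcium influx makes synaptic vesicles fuse with the plasma membrane at the active zone. The vesicle SNARE synaptobrevin (Vamp1, Vamp2) zips together with syntaxin (Stx1a) and SNAP-25 on the plasma membrane, while syntaxin-binding and Unc13 proteins help the complex to assemble, RIM and Rab3 proteins dock and prime the vesicle, synaptotagmins sense calcium, and complexins bind the assembled SNARE bundle. The caudate putamen, the dorsal part of the striatum, receives dopaminergic, cortical and thalamic terminals whose cell bodies lie elsewhere, so that RNA from this tissue comes mainly from the somata of local medium spiny neurons, interneurons and glia.

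The study compared 4 groups of 5 male C57BL/6J mice, with 1 array per mouse. Tat+ mice carry the HIV-1 Tat transgene under a tetracycline response element together with a doxycycline-dependent activator driven by the GFAP promoter, so that Tat is made by astrocytes. Tat- mice carry the activator alone, and all mice of both genotypes received 100 mg/kg doxycycline for 7 days. Over 7 days the mice were injected with 2 mg/kg methamphetamine (Meth) or 0.9% saline (Sal), and a group is named by genotype and injection, as in Tat-/Meth. The labels and the methods differ on the rest. By the labels the RNA came from the left hemisphere of perfused brains at 24 h after the last injection, in mice aged 6 to 7 weeks. By the methods it came from the caudate putamen of mice aged 3 to 5 months, at 1 h after a challenge with 1 mg/kg Meth that followed 7 days of abstinence and was given to all groups. If that holds, the Tat-/Sal mice had also met Meth once. All 10 markers of striatal neurons on the array were well above background in each group. The transgene itself was not analysed here. In bulk tissue, fewer cells of a type and less RNA per cell cannot be told apart.

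Levels are given as log2 of the processed fluorescence after scaling each array to the same 75th percentile, and a log2 difference of 1 is a 2-fold change. A member passed when its Benjamini-Hochberg adjusted p from limma was under 0.05 over all 15102 genes. The slides limit what can be compared. All 5 Tat-/Meth arrays lay on slide 1 with no array of another group, slide 2 held 5 Tat-/Sal arrays and Tat+/Meth replicates 1 to 3, and slide 3 held 5 Tat+/Sal arrays and Tat+/Meth replicates 4 and 5. Each slide was scanned at its own time. In every comparison that uses Tat-/Meth, the treatment and slide 1 therefore cannot be told apart. Before scaling, slide 1 had a 75th percentile of 9.64 to 9.79, against 9.75 to 10.33 elsewhere, and the bright control spots read 14.66 to 15.06 on slide 1 against 16.80 to 17.42. Tat-/Meth replicate 5 stood apart within its slide, with 70.9% of probes well above background against 56.5% to 60.3% in the other 4.

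In Tat- mice, Meth was compared with saline. After scaling, members moved in both directions. Among genes of neuronal release, Snap25, Cplx2 and Rab3c were lower after Meth, with and without scaling between arrays. Rab3a (-0.31) and Syn1 (-0.23) were lower too but did not pass with median scaling, and Sv2b (0.31) and Syn2 (0.17) were higher. Rab3c and Unc13b were named for their values in these data. Vamp1 and Unc13b were higher after scaling only. Without scaling they stood at 0.15 (limma adjusted p = 0.568) and -0.15 (adjusted p = 0.299). Stx1a, Vamp2 and Syt1 did not pass after scaling. Without scaling they passed as lower, at -0.42 (limma adjusted p = 0.0164), -0.3 (adjusted p = 0.00643) and -0.5 (adjusted p = 0.000355). In all, 34 of the 67 members passed, 23 higher and 11 lower, against 50.2% of all genes tested (35% higher and 15.3% lower), so the share of members that passed was near the background. Above 2-fold, 3 members passed (Syt10, Rab3c and Syt15, all lower), against 6.85% of all genes (6.48% lower). The groups did not overlap for 30 members, 19 higher and 11 lower, against 36.2% of all genes (24.7% higher and 11.5% lower). The median difference was 0.12 over the members and 0.14 over all genes tested.

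**Figure D1:**
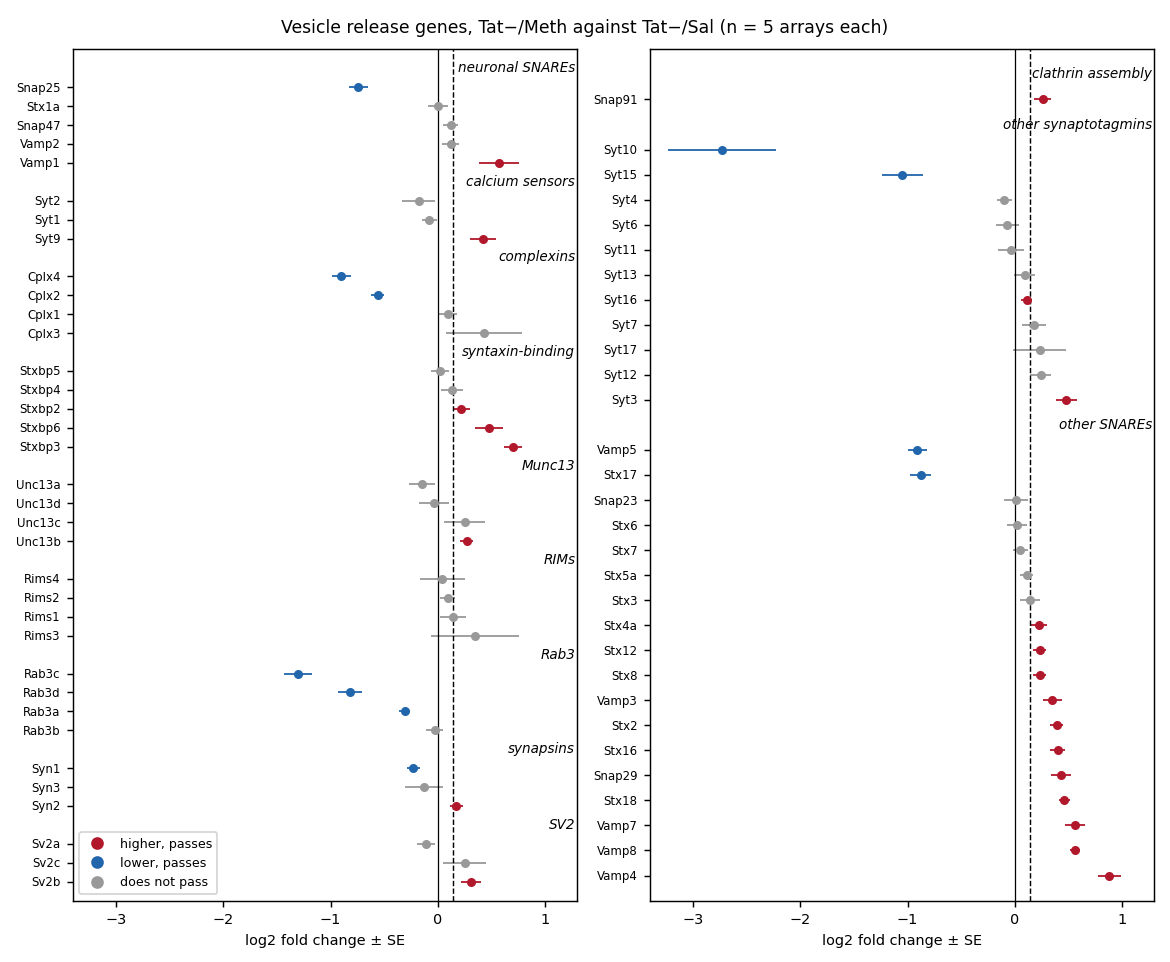
The log2 difference of the members reported by name in Tat-/Meth against Tat-/Sal (horizontal axis, scaled to the 75th percentile) is plotted by role, with points for members, bars for the SE and a dashed line at the median of all genes (0.14). Lower members reach -2.73 (Syt10) and higher ones 0.88 (Vamp4), and members that passed occur in both directions in 4 of the role groups. Without scaling between arrays 35 of the 36 passing members are lower, and the median of all genes is -0.29.

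The direction of the smaller changes rested on the scaling of the arrays. With no scaling between arrays, an alternative added after seeing the data, 36 of 66 members passed, 1 higher and 35 lower, against 48% of all genes. The median then moved to -0.29 over all genes and to -0.31 over the members. With scaling to the median in place of the 75th percentile, 21 passed, 12 higher and 9 lower, against 28.1% of all genes. Lower and higher members were followed through 5 settings. The settings were the 75th percentile, quantile normalization, median scaling, normexp background correction and the authors' value table. Normexp and value table values were also scaled to the 75th percentile. Of the 10 lower members followed, 8 passed as lower in all 5 settings and without scaling: Cplx2, Cplx4, Rab3c, Snap25, Stx17, Syt10, Syt15 and Vamp5. Of the 11 higher members followed in the same way, 8 passed in all 5 settings and only Vamp4 did so without scaling as well. The higher values below are relative to that 75th percentile.

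Among the neuronal SNAREs, Snap25 was lower in Tat-/Meth. SNAP-25 supplies a pair of helices to the SNARE bundle. Its levels were 16.31, 16.54, 16.42, 16.35 and 16.26 in Tat-/Meth and 16.9, 17.08, 17.27, 16.96 and 17.36 in Tat-/Sal, a difference of -0.74 ± 0.09 (SE, n = 5 per group), or 1.67-fold lower (limma adjusted p = 2.02e-06). No Tat-/Meth array reached the lowest of the Tat-/Sal arrays, and both Tat+ groups lay inside the Tat-/Sal range, at 16.95 to 17.3 in Tat+/Meth and 17.04 to 17.22 in Tat+/Sal. Its partners Stx1a and Vamp2 did not pass. The difference was 0 ± 0.09 for Stx1a (adjusted p = 0.991) and 0.12 ± 0.08 for Vamp2 (adjusted p = 0.256). Snap47, a relative of SNAP-25, did not pass (0.12, adjusted p = 0.162).

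Vamp1, the synaptobrevin of many fast-firing and motor neurons, passed as higher with a difference of 0.57 ± 0.19 (adjusted p = 0.0198). Its levels were 12.61, 11.54, 11.44, 11.56 and 11.23 in Tat-/Meth and 10.86, 11.11, 11.58, 10.85 and 11.15 in Tat-/Sal. The groups overlapped, and replicate 1 was the single Tat-/Meth array above all Tat-/Sal arrays. Without it the difference was 0.33 (adjusted p = 0.0376), and without Tat-/Sal replicate 1 or 4 it was 0.5 and no longer passed (adjusted p = 0.0503 and 0.0524).

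Of the calcium sensors for fast release, Syt1 and Syt2 did not pass, and Syt9 was higher by 0.42 ± 0.12 (adjusted p = 0.00724). Syt1, the main sensor of forebrain synapses, differed by -0.08 ± 0.07 (adjusted p = 0.39), with levels of 15.85, 15.76, 15.69, 15.75 and 15.64 in Tat-/Meth against 15.76 to 15.9 in Tat-/Sal, and the groups overlapped. Syt2 differed by -0.18 ± 0.15 (adjusted p = 0.352). Without scaling Syt1 and Syt2 passed as lower, at -0.5 and -0.6 (limma adjusted p = 0.000355 and 0.00633).

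Of the 4 complexins, Cplx2 and Cplx4 were lower and the other 2 did not pass. Cplx2, which binds the SNARE bundle and both clamps and promotes fusion, had levels of 17.17, 17.44, 17.34, 17.27 and 17.37 in Tat-/Meth and 17.81, 17.84, 17.9, 17.81 and 18.04 in Tat-/Sal, a difference of -0.56 ± 0.06 (adjusted p = 1.03e-06). The 5 Tat-/Meth arrays were the lowest of all 20, with Tat+/Meth at 17.76 to 17.98 and Tat+/Sal at 17.89 to 18.14. Cplx4, a complexin of retinal ribbon synapses, read 6.33, 6.15, 6.06, 6.44 and 6.43 in Tat-/Meth against 7.04 to 7.52 in Tat-/Sal and differed by -0.9 ± 0.09 (adjusted p = 3.5e-07). Cplx1 differed by 0.09 ± 0.09 (adjusted p = 0.411), and Cplx3 by 0.43 ± 0.35 (adjusted p = 0.321).

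Rab3 GTPases coat synaptic and other secretory vesicles, and 3 of the 4 were lower on their brightest probes, against 15.3% of all genes tested. Rab3c levels were 14.28, 13.85, 14.13, 13.89 and 13.92 in Tat-/Meth and 15.55, 15.26, 15.05, 15.43 and 15.27 in Tat-/Sal, a difference of -1.3 ± 0.13, or 2.46-fold lower (adjusted p = 2.2e-07). All 5 Tat-/Meth arrays lay below the lowest array of any other group, which read 14.64 in Tat+/Sal. Rab3a, the most studied neuronal member, read 16.79, 16.82, 16.72, 16.74 and 16.76 in Tat-/Meth against 17.04 to 17.13 in Tat-/Sal and fell by 0.31 on the log2 scale (SE 0.05, adjusted p = 2.99e-05), but it did not pass with median scaling (-0.19, adjusted p = 0.378). Rab3d, known from exocrine and endocrine granules, differed by -0.82 ± 0.11 (adjusted p = 6.12e-06) on its brighter probe and 0.29 on the other, and Rab3b by -0.03 ± 0.08 (adjusted p = 0.796).

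**Figure D2:**
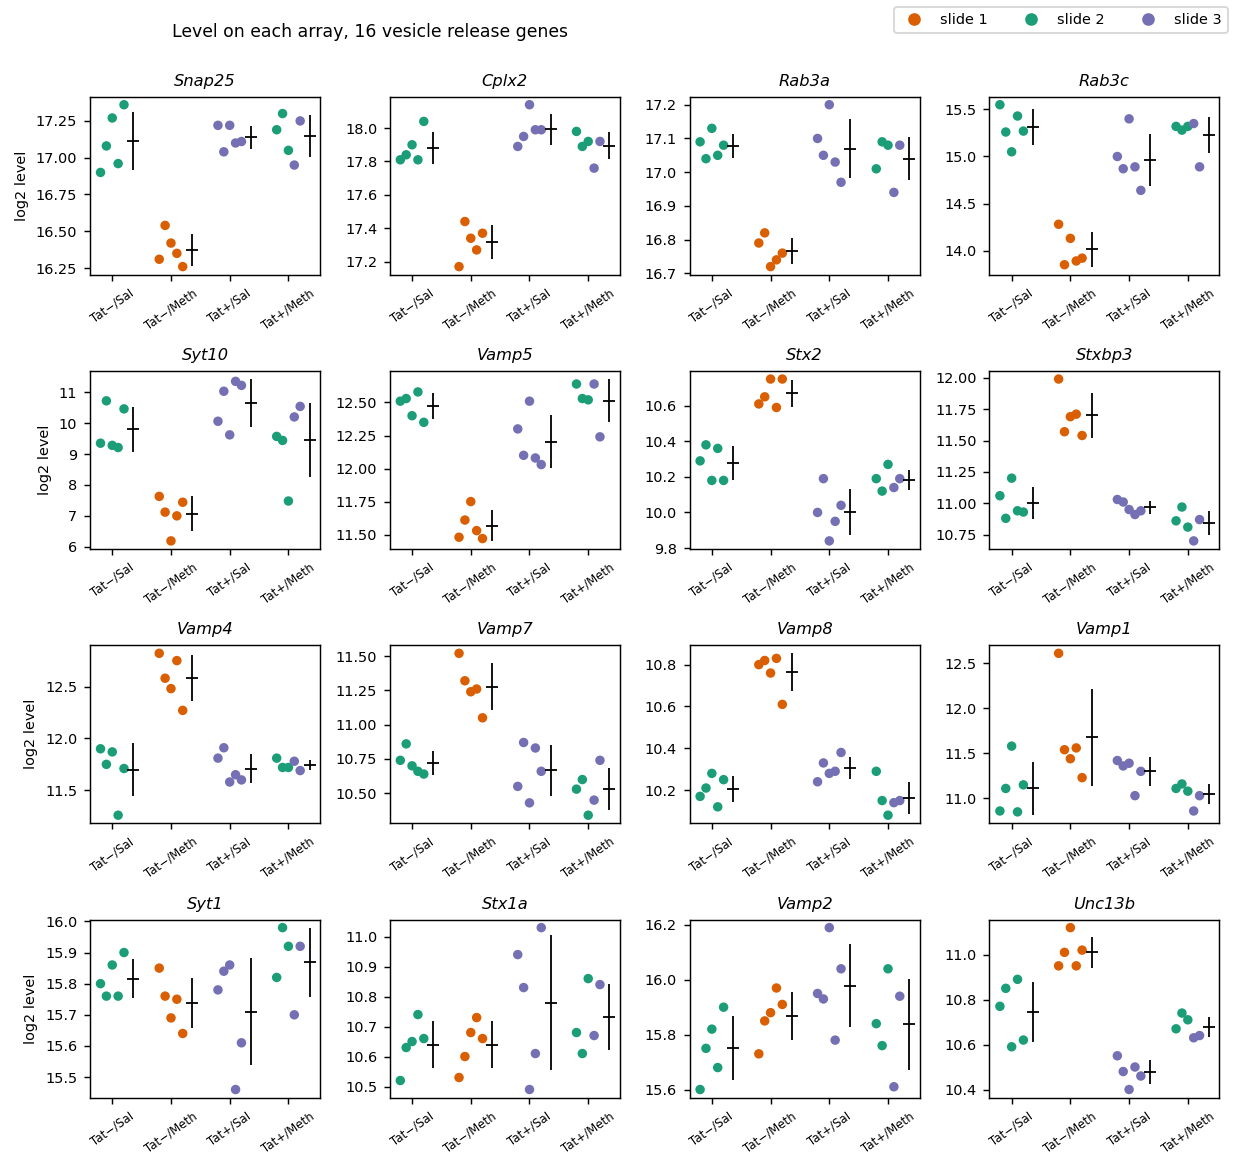
Levels on each of the 20 arrays (log2, vertical axis) are plotted by group for selected members, 1 point per mouse coloured by slide, with the group mean and SD (n = 5). The Tat-/Meth arrays, all on slide 1, lie below the other 15 for Snap25, Cplx2 and Rab3c and above them for Vamp4.

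Of the syntaxin-binding and Unc13 proteins, those that passed under the 75th-percentile scaling were higher. Of the 6 syntaxin-binding proteins tested, 4 were higher and none was lower on the probe used, against 35% of all genes tested higher and 15.3% lower. The groups did not overlap for 2 of the 6, both higher, against 24.7% of all genes. Stxbp3 (Munc18c), which acts with syntaxin 4 outside the synapse, read 11.99, 11.57, 11.69, 11.71 and 11.54 against 10.88 to 11.2 and differed by 0.7 ± 0.08 (adjusted p = 1.1e-06), and by 0.28 (adjusted p = 0.055) without scaling. Stxbp6 (amisyn) was higher by 0.48 ± 0.13 (adjusted p = 0.00544), with 4 of 5 arrays above the Tat-/Sal range. The priming factor Unc13b (Munc13-2) was the 1 of 4 Unc13 genes that passed, against 50.2% of all genes tested. It was higher by 0.27 ± 0.06 (adjusted p = 0.00106), and stood at -0.15 without scaling. Unc13a (Munc13-1) differed by -0.15 ± 0.12 (adjusted p = 0.312), and Unc13c and Unc13d did not pass.

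RIM proteins tie vesicles to calcium channels, and none of the 4 passed on the probe used, against 50.2% of all genes tested. Rims1 differed by 0.14 ± 0.12 (adjusted p = 0.377), but by -0.76 (adjusted p = 0.00485) on its other probe. Rims2 differed by 0.09 ± 0.07 (adjusted p = 0.278). Rims3 and Rims4 were dim and turned on Tat-/Meth replicate 5, which read 8.52 for Rims3 against 5.33 to 5.82 on the other 4 arrays and 7.55 for Rims4 against 5.97 to 6.46. Without it their differences went from 0.35 to -0.24 (adjusted p = 0.199) and from 0.04 to -0.24 (adjusted p = 0.0701).

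Of the vesicle proteins, synapsins tether the reserve pool to actin, and they split. Syn1 differed by -0.23 ± 0.06 (adjusted p = 0.00535), Syn2 by 0.17 ± 0.06 (adjusted p = 0.0361) and Syn3 by -0.13 ± 0.18 (adjusted p = 0.576). Syn1 did not pass with median scaling, and Syn2 stood at -0.25 without scaling. SV2 proteins are vesicle glycoproteins, and Sv2a is the binding site of levetiracetam. Sv2b was higher by 0.31 ± 0.09 (adjusted p = 0.00526), whereas Sv2a differed by -0.11 ± 0.08 (adjusted p = 0.254) and Sv2c, the form enriched in the basal ganglia, by 0.25 ± 0.2 (adjusted p = 0.327). Snap91 (AP180), a clathrin assembly protein that the name rule takes in, was higher by 0.26 (adjusted p = 0.00759).

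Of the other 11 synaptotagmins tested, 2 were higher (Syt3 and Syt16), 2 were lower (Syt10 and Syt15) and 7 did not pass. Syt10, known as the calcium sensor for release of IGF-1 in olfactory neurons, read 7.63, 7.12, 6.19, 7 and 7.44 in Tat-/Meth and 9.35, 10.72, 9.28, 9.21 and 10.46 in Tat-/Sal. It differed by -2.73 ± 0.5, or 6.64-fold lower (adjusted p = 0.000193), with no overlap between these groups. It was also the member with the widest spread between mice, with a within-group SD of 0.84 against a median of 0.15 over the members and 0.15 over all genes. Tat+/Meth ranged from 7.48 to 10.54, so that 1 of its arrays lay inside the Tat-/Meth range. Syt15 differed by -1.05 ± 0.19 (adjusted p = 0.000176), and by -1.23 without Tat-/Meth replicate 5, which read 6.58 against 5.27 to 6.18 on the other 4. Syt3, a sensor with high calcium affinity, was higher by 0.48 ± 0.1 (adjusted p = 0.000727) on its brighter probe only.

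Of the 18 SNAREs outside the neuronal set, 13 passed, 11 higher and 2 lower, against 50.2% of all genes tested (35% higher and 15.3% lower). The higher ones were Vamp4, Vamp7, Vamp8, Vamp3, Stx18, Stx16, Stx2, Stx8, Stx12, Stx4a and Snap29. Vamp4, a trans-Golgi and endosomal SNARE that also serves asynchronous release and bulk endocytosis, read 12.82, 12.58, 12.48, 12.75 and 12.27 in Tat-/Meth against 11.9, 11.75, 11.87, 11.26 and 11.71 in Tat-/Sal, a difference of 0.88 ± 0.11, or 1.84-fold (adjusted p = 4.87e-06). All 5 Tat-/Meth arrays lay above all other 15 arrays, and this was the member that stayed higher and passed without scaling, at 0.46 (adjusted p = 0.015). Vamp8, an endosomal and lysosomal SNARE, read 10.8, 10.82, 10.76, 10.83 and 10.61 against 10.12 to 10.28 and differed by 0.56 ± 0.05 (adjusted p = 1.04e-07). Vamp7, a lysosomal SNARE with a part in neurite growth, differed by 0.56 ± 0.09 (adjusted p = 9.95e-05), and both stood at 0.14 and did not pass without scaling. The 2 lower ones were Vamp5, a SNARE-like protein best known from muscle, at -0.91 ± 0.09 (adjusted p = 2.92e-07), and Stx17, the SNARE of autophagosomes, at -0.88 ± 0.1 (adjusted p = 7.05e-07).

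Members were also read against their signal, as changes differed with it. Of the 18 members with a mean level from 10 to 12, 14 were higher and 1 was lower, with a median of 0.33 against 0.17 over all genes at that level, of which 43.6% were higher and 11.3% lower. Of the 16 members at 14 and above, 3 were higher and 5 lower, with a median of -0.01 against 0.06 over all genes there, of which 26.7% were higher and 18% lower. Among the 11 members under 8, Tat-/Meth replicate 5 was the highest array of its group in 9, and among the 56 at 8 and above in 5. All genes under 8 on the other 4 arrays showed the same, with replicate 5 higher by a median of 0.47 over 3118 genes. Without replicate 5, 34 members passed, 22 higher and 12 lower, against 50.2% of all genes.

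**Figure D3:**
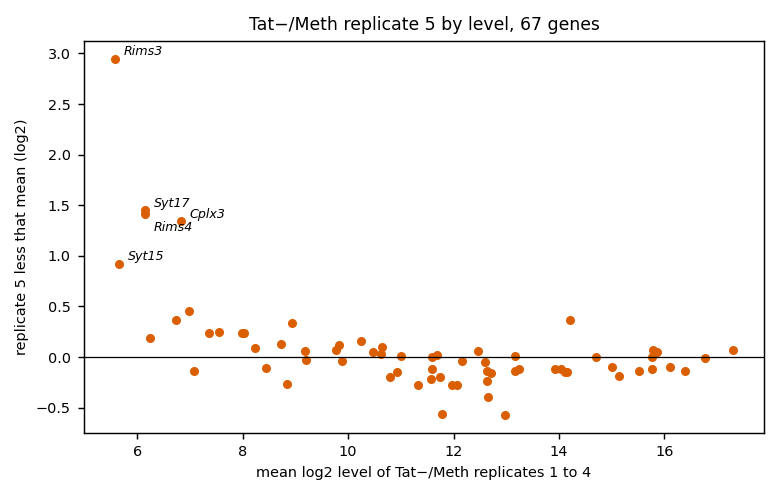
The level of each member on Tat-/Meth replicate 5 less the mean of the other 4 Tat-/Meth arrays (log2, vertical axis) is plotted against that mean (log2, horizontal axis), 1 point per member. Most members under a level of 8 lie above 0, and Rims3 lies highest, at 8.52 against 5.33 to 5.82.

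Different probes of a gene did not always move together, and this bears on several of the lower and higher members. In all 102 probes covered the members. Of the 25 members with more than 1 probe, 21 had at least 2 that reached the level for testing. Of the 4 probes for Cplx2, 3 were lower (-0.56, -1.46 and -1.28) and the other did not pass (-0.23, adjusted p = 0.258). Of the 3 for Rab3c, 2 were lower (-1.3 and -0.87, the second at an adjusted p of 3.03e-05) and the other read 14.55 in Tat-/Meth and 14.49 in Tat-/Sal (0.06, adjusted p = 0.414). Stx17 was lower on its brightest probe only, while its other 2 stood at 0.22 (adjusted p = 0.0156) and 0.13 (adjusted p = 0.0957). Rab3d had a probe at -0.82 and one at 0.29 (adjusted p = 0.0568). Vamp4 had a second probe at -0.18 (adjusted p = 0.125), and Stxbp3 had others at 0.43 (adjusted p = 0.0189) and 0.07. The second Syt3 probe stood at -0.04 (adjusted p = 0.762), and at -0.13 in the interaction (adjusted p = 0.47). The 2 probes for Snap29 were both higher (0.43 and 0.6), as were those for Syn2 (0.17 and 0.37). The Rims1 probe used here did not pass, and the other differed by -0.76 (adjusted p = 0.00485). That other probe was dimmer in Tat-/Meth only, at 7.54 against 8.26. It was the brighter one in Tat-/Sal, at 8.3 against 8.13, and in both Tat+ groups. The choice of the Rims1 probe thus rested on the Tat-/Meth arrays. Snap25, Cplx4, Syt10, Vamp5, Vamp8 and Unc13b had 1 probe each, so no second probe could be set beside them.

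**Figure D4:**
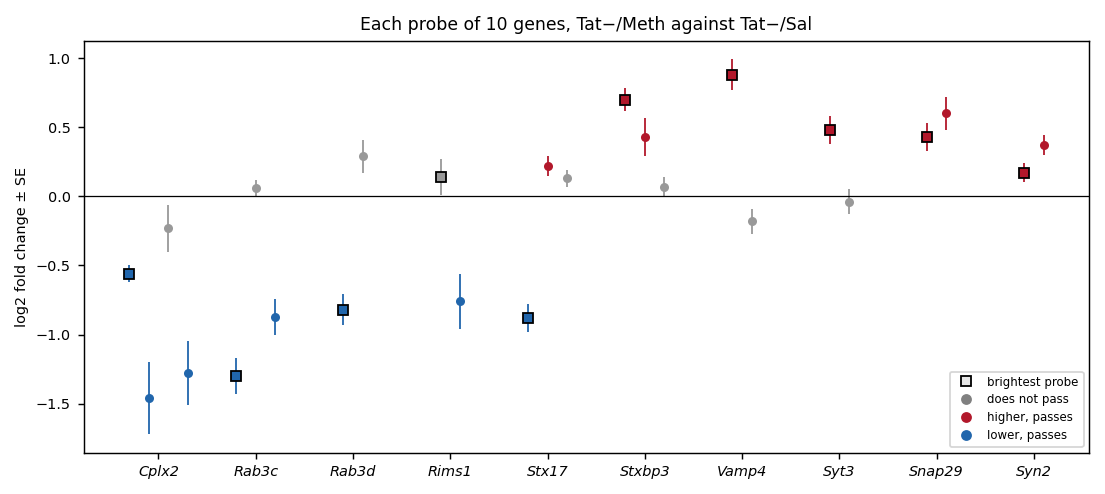
The log2 difference of each probe in Tat-/Meth against Tat-/Sal is plotted for 10 members with several probes, with the SE as bars and the brightest probe as a square. The 3 Rab3c probes read -1.3, -0.87 and 0.06, and the 2 Snap29 probes read 0.43 and 0.6.

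Promoters were set beside these changes because lower and higher members lay in the same families. RefSeq start-site windows of the mouse GRCm38.p6 build, from 250 bases before to 50 after the start, were found for 55 of the 71 members. The GC box CCGCCC, on either strand, stood in 43 of the 55 (78.2%) against 38.2% of 27025 genes. It stood in 15 of the 20 higher members (75%), in 7 of the 9 lower members (77.8%) and in 19 of the 22 that did not pass (86.4%). The cAMP response element TGACGTCA was in 2 of 55 (3.64%, against 2.03% of all genes), Stxbp3 and Syn1, and the TATA box TATAAA on either strand in 4 (7.27%, against 15.7%). A match is a description of letters and not of binding.
The 250 bases before the start are printed 5′ to 3′ for 4 members: Stxbp3 (higher) and Syn1 (lower) hold the only cAMP response elements, Rab3c fell most in its family, and Unc13b is one of the members lower in Tat+/Sal. Capitals mark the motifs, which do not overlap in these stretches.
Stxbp3 (chr3:108840503-108840752, minus strand): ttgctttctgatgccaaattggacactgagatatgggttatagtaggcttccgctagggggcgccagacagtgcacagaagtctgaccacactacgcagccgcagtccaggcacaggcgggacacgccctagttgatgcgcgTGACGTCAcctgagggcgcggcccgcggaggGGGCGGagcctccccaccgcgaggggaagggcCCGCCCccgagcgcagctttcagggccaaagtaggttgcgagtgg
Syn1 (chrX:20920919-20921168, minus strand): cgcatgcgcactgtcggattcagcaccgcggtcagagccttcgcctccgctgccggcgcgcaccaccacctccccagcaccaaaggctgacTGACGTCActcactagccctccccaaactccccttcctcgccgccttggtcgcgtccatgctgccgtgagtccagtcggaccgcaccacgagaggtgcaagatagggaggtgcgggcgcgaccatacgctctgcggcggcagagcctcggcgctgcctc
Rab3c (chr13:110280207-110280456, minus strand): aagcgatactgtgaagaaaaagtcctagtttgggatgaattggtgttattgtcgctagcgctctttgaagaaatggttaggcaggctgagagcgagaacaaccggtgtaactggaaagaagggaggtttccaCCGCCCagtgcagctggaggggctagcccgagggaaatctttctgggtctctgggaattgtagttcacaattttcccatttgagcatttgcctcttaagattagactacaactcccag
Unc13b (chr4:43058703-43058952, plus strand): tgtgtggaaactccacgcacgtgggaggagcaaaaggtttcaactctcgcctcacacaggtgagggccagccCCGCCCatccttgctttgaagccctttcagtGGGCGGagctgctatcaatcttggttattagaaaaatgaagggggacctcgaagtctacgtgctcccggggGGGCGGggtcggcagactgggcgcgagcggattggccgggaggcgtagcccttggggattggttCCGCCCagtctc
In Stxbp3 the cAMP response element starts 108 bases before the start site and GC boxes lie at 77 and 45 bases. In Syn1 the element starts 159 bases before the start. Rab3c has a GC box at 118 bases and Unc13b has 4, at 178, 147, 76 and 12 bases.

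Other genes of the vesicle cycle, from a list chosen by role, were tested beside the members. Of these 71 genes, 36 passed in Tat-/Meth against Tat-/Sal, 29 higher and 7 lower. The share that passed was close to the 50.2% of all genes tested (35% higher and 15.3% lower). The counts by list below are for scaled arrays. Without scaling between arrays the members that passed were 1 higher and 35 lower. Values without scaling are not given here for these lists, so their direction is relative to the scaling. Of 15 active zone scaffold genes, 9 were higher and none lower. Of 15 further fusion factors, 8 were higher and 1 lower, and the lower one was Dnajc5, which encodes the vesicle chaperone cysteine string protein, at -1.11 (adjusted p = 7.09e-09). Of 16 vesicle membrane genes, 4 were higher, among them the synaptogyrin Syngr1 at 0.48, and 2 were lower, Syngr4 and Syp (synaptophysin, -0.3, adjusted p = 0.0028). Of 25 genes of endocytosis, 8 were higher and 4 lower, with Pacsin1 (syndapin) at -1.47 (adjusted p = 1.28e-09) and Sh3gl1, an endophilin, at 0.71. The summed log2 level of the 8 pan-neuronal markers was 18.28 to 18.36 in Tat-/Meth and 18.18 to 18.35 in Tat-/Sal, and that of the 10 striatal neuron markers was 19.95 to 20.04 and 19.97 to 20.19, and the sums of both lists overlapped between the groups. The 6 microglial markers, all well above background, summed to less on every Tat-/Meth array, at 16.74 to 16.89 against 17.38 to 17.76, but only Itgam (-1.07) and P2ry12 (-0.35) passed as lower and the median over the list was -0.07. Of the 7 tested markers of excitatory neurons outside the striatum, Tcf7l2 (-1.61) and Neurod2 (-1.22) passed as lower and none as higher, the median was -0.79, and the sums were 9.73 to 10.49 in Tat-/Meth against 10.39 to 11.67 in Tat-/Sal. These were dim. Of the 8 on the array, 5 were well above background on at least 4 of 5 Tat-/Meth arrays, and 7 in Tat-/Sal. Of the 7 astrocyte markers, 4 passed as higher and 1, Aldoc, as lower, with sums of 18.23 to 18.51 against 18.39 to 18.67. The part of the marker shifts in the members' values was not tested.

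Tat+/Meth was then compared with Tat-/Meth, which shares the Tat-/Meth arrays and thus slide 1 with the comparison above. Of the 67 members, 35 passed, 13 higher and 22 lower in Tat+/Meth, against 54.4% of all genes (16% higher and 38.5% lower), and the groups did not overlap for 27 members, against 38% of all genes. The members' median was -0.09 and that of all genes -0.15. Without scaling 31 passed, 27 higher and 4 lower, against 37.1% of all genes, and the median of all genes was 0.19. Syt10 was higher by 2.37 (adjusted p = 0.000594), Rab3c by 1.22 (adjusted p = 4.52e-07), Vamp5 by 0.95, Stx17 by 0.95, Cplx4 by 0.81, Snap25 by 0.77 (adjusted p = 9.72e-07) and Cplx2 by 0.57. Stxbp3 differed by -0.85, Vamp4 by -0.83, Vamp7 by -0.74 and Snap29 by -0.72. Members low on the Tat-/Meth arrays come out high here and the reverse, since those arrays are shared.

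Tat alone, as Tat+/Sal against Tat-/Sal, is free of slide 1 but sets slide 3 against slide 2. Only Unc13b and Stx2 passed, both lower in Tat+/Sal, 2 of 67 against 1.42% of all genes tested (0.649% lower). An unadjusted limma p under 0.05 was found for 13 of the 67 members, against 3094 of the 15102 genes tested. The groups did not overlap for 4 members, against 4.85% of all genes. Unc13b (Munc13-2) read 10.55, 10.48, 10.4, 10.5 and 10.46 in Tat+/Sal and 10.77, 10.85, 10.59, 10.89 and 10.62 in Tat-/Sal, a difference of -0.26 ± 0.06 (adjusted p = 0.0378). All 5 Tat+/Sal arrays lay below all Tat-/Sal arrays. Stx2 (epimorphin, a plasma membrane syntaxin) read 10, 10.19, 9.84, 9.95 and 10.04 against 10.29, 10.38, 10.18, 10.36 and 10.18, a difference of -0.27 ± 0.06 (adjusted p = 0.0394), and 4 of 5 arrays lay below the Tat-/Sal range. With slide as a fixed block, which Tat+/Meth on both slides allows, the differences were -0.19 ± 0.11 and -0.24 ± 0.12 and neither passed (adjusted p = 0.872 for both). Both were also lost with median scaling (adjusted p = 0.998) and when only the groups compared entered the fit (adjusted p = 0.156). Cplx4 (-0.37, adjusted p = 0.0512), Stxbp2 (0.29, adjusted p = 0.057) and Cplx1 (0.33, adjusted p = 0.0693) came next and did not pass. Of the 71 other vesicle-cycle genes, 1 passed, Amph (amphiphysin), at -0.25 (adjusted p = 0.0386).

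Meth in Tat+ mice, as Tat+/Meth against Tat+/Sal, gave no passing member by limma, against 0% of all genes, with a smallest adjusted p of 0.229. At an unadjusted p under 0.05 there were 10 members, against 1838 of the 15102 genes tested. The groups did not overlap for 2, against 2.28% of all genes. Vamp5 differed by 0.31 ± 0.09 and Unc13b by 0.2 (adjusted p = 0.229 for both), and Snap25 by 0.01 ± 0.09. Tat+/Meth against Tat-/Sal likewise gave none, against 0% of all genes, with a smallest adjusted p of 0.64. An unadjusted p under 0.05 was found for 7 members, against 1177 of the 15102 genes tested. No member had groups that stood apart, against 1.68% of all genes. Within slide 2, where 3 Tat+/Meth arrays stood beside the 5 Tat-/Sal arrays, Rab3c differed by -0.01 ± 0.11 and Snap25 by 0.07 ± 0.12. Within slide 3, with 2 Tat+/Meth arrays and 5 Tat+/Sal arrays, Rab3c differed by 0.16 ± 0.2 and Snap25 by -0.04 ± 0.11, and no member passed within either slide.

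**Figure D5:**
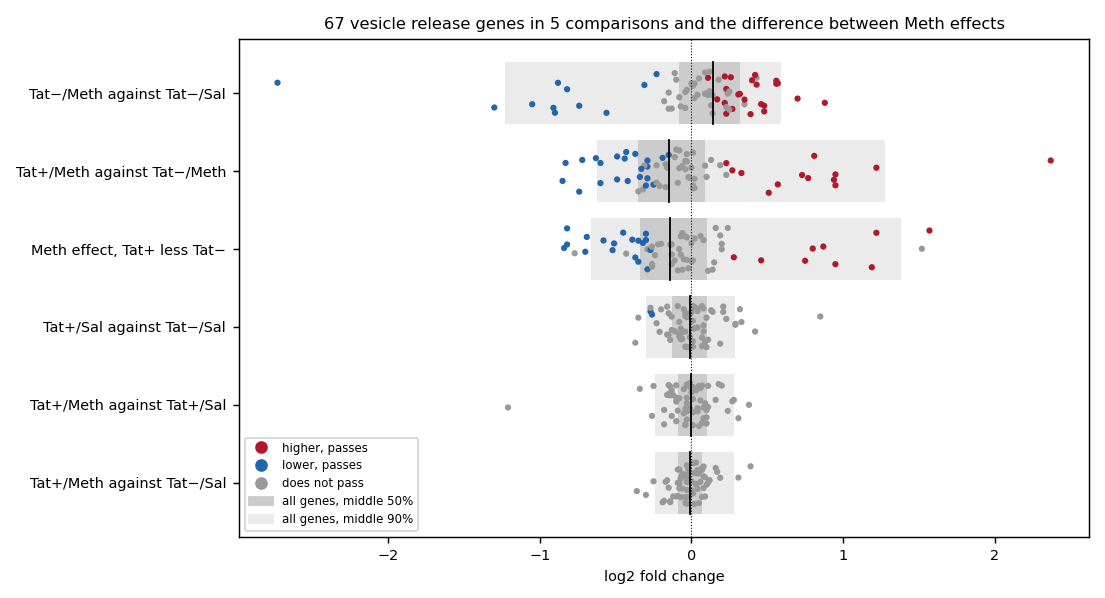
Members' log2 differences in the comparisons are plotted beside each other, with 1 point per member over bands that hold the middle of all genes tested (shares in the key) and a line at their median. Tat-/Meth against Tat-/Sal and Tat+/Meth against Tat-/Meth, which share the Tat-/Meth arrays, spread widely in opposite directions. In the comparisons without that group, members other than Syt10 lie between -0.37 and 0.42. Syt10 lies at -1.21 in Tat+/Meth against Tat+/Sal and 0.85 in Tat+/Sal against Tat-/Sal, neither of which passed.

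The interaction asked whether the Meth effect differed with Tat, and it too rests on slide 1 because it subtracts Tat-/Meth. It passed for 27 of 67 members, 9 higher and 18 lower, against 36% of all genes (12.4% higher and 23.6% lower), with a median of -0.08 against -0.14 over all genes. Without scaling 26 passed, all higher, against 39.4% of all genes, and the median of all genes was 0.35. Rab3c had a Meth effect of -1.3 in Tat- and 0.27 in Tat+, an interaction of 1.57 (adjusted p = 3.4e-06). Snap25 had -0.74 and 0.01, an interaction of 0.75 (adjusted p = 0.000144), and Vamp4 had 0.88 and 0.04, an interaction of -0.84 (adjusted p = 0.000524). Cplx4, Rab3c, Stx17 and Vamp5 passed as higher in all 5 settings of scaling and background correction and without scaling, whereas none of the 9 lower members followed did. Syt10 did not pass (1.52).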

How the data were processed

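Whole-genome expression arrays of 20 mice, 5 in each of 4 groups, were analysed. Per the file headers, the authors' arrays were scanned with 1 colour and read with Agilent Feature Extraction 10.7.3.1 on a design of 62976 spots; the deposited intensity is the background-subtracted processed signal of each spot. The labels give the dye as Cy3 and the methods describe Cy5 and another scanner. The value table of the authors holds intensity on a linear scale too and served as an alternative. Its array medians ran from 69.8 to 145, its correlation with the processed signal was at least 0.9988 on the log2 scale, and its normalization is not given in the sources used here.

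Log2 values were scaled to each array's 75th percentile, 4278 outlier spots and 3671 control spots were left out, spots were averaged per probe, and the brightest probe stood for a gene. limma 3.58.1 in R 4.3.3 was fitted with 1 mean per group over all 20 arrays, with 5 comparisons and an interaction, and Benjamini-Hochberg adjustment over 15102 genes. The script was tested on simulated data. The number of arrays, 1 per mouse, limits the precision. Genes followed through every alternative were a fixed core of members, those passing above 2-fold, the 5 largest passing changes per comparison and direction without overlap, those passing in comparisons without Tat-/Meth, and those with a probe passing the other way; some members are counted but not reported here by name, and other members were named after their values were seen. The members and lists were chosen with earlier results of these data known. The alternatives were other scalings and background corrections, filters, probe summaries, blocks, tests, thresholds and left-out arrays.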

Additional observations from a re-analysis of the deposited data

Results flagged for a closer look

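In 6 of 124 groups of 5 arrays (31 members in 4 groups), the extreme array stood apart from the rest by more than Dixon's critical value. Chance flags about 1 in 20 groups, so 6 is near what chance gives. Cplx4 read 7.52 in Tat-/Sal replicate 5 against 7.04 to 7.17 in the other 4, and Rab3c read 14.89 in Tat+/Meth replicate 5 against 15.28 to 15.35. Sv2b read 12.1 in Tat-/Sal replicate 1 against 12.16 to 12.18, Sv2c 8.49 in Tat+/Meth replicate 3 against 8.15 to 8.24, and Syn1 14.76 in Tat-/Meth replicate 1 against 14.69 to 14.7. Vamp1 read 12.61 in Tat-/Meth replicate 1 against 11.23 to 11.56.

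In 17 members followed through every alternative, the Meth effect differed between Tat+ and Tat- mice by the interaction term of limma, which includes the Tat-/Meth arrays of slide 1, so that slide and group cannot be told apart. The interaction was positive for Rab3c (1.57, adjusted p = 3.4e-06), Vamp5 (1.22, adjusted p = 1.25e-06), Cplx4 (1.19, adjusted p = 1.96e-06), Stx17 (0.95, adjusted p = 3.45e-05), Syt15 (0.87, adjusted p = 0.0162), Snap25 (0.75, adjusted p = 0.000144), Cplx2 (0.46, adjusted p = 0.000648) and Rab3a (0.28, adjusted p = 0.00323). It was negative for Vamp4 (-0.84, adjusted p = 0.000524), Vamp1 (-0.82, adjusted p = 0.0245), Stxbp3 (-0.82, adjusted p = 1.92e-05), Vamp8 (-0.7, adjusted p = 1.06e-06), Vamp7 (-0.69, adjusted p = 0.000595), Syt3 (-0.58, adjusted p = 0.00385), Snap29 (-0.52, adjusted p = 0.00572), Cplx1 (-0.35, adjusted p = 0.0408) and Sv2b (-0.32, adjusted p = 0.0443).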

How the results depend on the processing

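Of the 21 members followed that passed in Tat-/Meth against Tat-/Sal, 410 of 420 values with 1 array left out and 271 of 293 values under other alternatives kept their direction and passed. The arrays left out include those of both Tat+ groups. Leaving out a Tat+ array could not change the difference itself, only the shared estimate of the spread. With no scaling between arrays, added after seeing the data, members that passed with or without scaling turned sign in that comparison: Cplx1 (-0.33), Snap23 (-0.41), Stx2 (-0.03), Sv2b (-0.11), Syn2 (-0.25), Unc13b (-0.15) and Vamp2 (-0.3). Rims1 (-0.28) and Sv2c (-0.17) turned sign and passed in neither setting. Members that passed in at least 1 setting also turned sign in Tat+/Meth against Tat-/Meth, at Cplx1 (0.32), Sv2b (0.09), Syn2 (0.14), Syt3 (0.05), Unc13b (0.01) and Vamp2 (0.31), and in the interaction, at Cplx1 (0.14) and Sv2b (0.16). With the mean over a gene's probes, Rims1 stood at 0.37 and Snap23 at -0.3 in Tat+/Meth against Tat-/Meth, and Stx2 at 0.04 in Tat+/Sal against Tat-/Sal. In each of these cases the cause was not tested beyond the alternative's own construction.

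Of the 34 members passing in Tat-/Meth against Tat-/Sal, 3 passed above 2-fold and 1 at an adjusted p under 0.01 and above 3-fold. With median scaling 21 passed, against 28.1% of all genes. For Tat+/Meth against Tat-/Meth (35 members) 2 and 1 passed at those 2 fold limits, and for the interaction (27 members) 3 and 0. Under median scaling 11 passed in the interaction, against 17% of all genes. The 2 members of Tat+/Sal against Tat-/Sal became 0 above 2-fold, above 3-fold, with median scaling, normexp, the value table, no filter, slide as a fixed block, no scaling or only the groups compared. They became 1 with the mean over probes, 4 with a trend in the prior variance and 10 with slide as a random block (correlation -0.062). The methods' t-test gave 14 members there unadjusted and 0 after Benjamini-Hochberg, 10 unadjusted in Tat+/Meth against Tat+/Sal and 8 in Tat+/Meth against Tat-/Sal. The shares of all genes by that t-test are not given here, so these counts are not read as a result about the members. With 1 array left out, the counts ran from 30 to 35 for Tat-/Meth against Tat-/Sal, 31 to 38 for Tat+/Meth against Tat-/Meth, 0 to 5 for Tat+/Sal against Tat-/Sal, 23 to 29 for the interaction, and stayed at 0 for the other 2 comparisons.

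Same-numbered replicates did not pair (30 pairs, correlations -0.18 to 0.36 with a median of 0.04; 120 other pairs, median -0.01). With the replicate block the counts were 34, 36, 4, 0, 0 and 30, in the order Tat-/Meth against Tat-/Sal, Tat+/Meth against Tat-/Meth, Tat+/Sal against Tat-/Sal, Tat+/Meth against Tat+/Sal, Tat+/Meth against Tat-/Sal and the interaction. Rims3, Syt15 and Syt17 were not well above background on every array, which limits their values.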
